A study of Homo sapiens with 16 samples.

Results

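The genes described here are 40 genes of early secretory transport, which carry newly made proteins into the endoplasmic reticulum (ER) and on to the Golgi apparatus. They were chosen by name for their place in this route, but with earlier results of these data known. All 40 were found in the expression table of 60642 gene symbols and passed the filter that left 16636 genes for testing. They comprise 5 translocon genes, 5 genes of the translocon-associated complex and the signal recognition particle (SRP) receptor, 11 COPII genes, 8 COPI genes, 9 cargo receptor genes and 2 SNARE genes. Levels were measured by bulk RNA sequencing of LNCaP, an established human prostate cancer cell line that carries the androgen receptor. Every culture was grown for 72 h with 5% serum, deprived of androgen for 48 h in 5% charcoal-stripped serum (CSS) and then treated for 48 h.

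The 8 treatment groups had 2 biological replicates each, 16 libraries in all. VEH received only the solvents, ethanol and DMSO, and DHT received 10 nM dihydrotestosterone, the natural agonist of the androgen receptor. BIC.VEH, ENZ.VEH and APA.VEH received 10 µM of the antagonist bicalutamide, enzalutamide or apalutamide (ARN in the labels) without DHT, and BIC.DHT, ENZ.DHT and APA.DHT received the antagonist together with 10 nM DHT. The comparisons ask how the transport genes responded to androgen and what each antagonist did to that response. All groups come from 1 cell line in androgen-depleted serum.

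Secreted and membrane proteins enter the ER through the SEC61 channel, to which ribosomes are brought by SRP and its receptor. COPII coats then bud vesicles that leave the ER, cargo receptors select what enters them, and COPI coats return receptors and escaped ER residents from the Golgi. Luminal prostate cells secrete large amounts of protein, prostate-specific antigen among it. Many genes of this route are known targets of the transcription factors XBP1, ATF6 and the CREB3 family, whose sites contain the letters CCACG or TGACGTG.

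Because the members share a route, their promoters were read first, from the RefSeq table of GRCh38.p14, which covers 250 bases before to 50 bases after a start site. It held 37 of the 40 genes (not KDELR2, SEC24D or ARF4). Of these, 4 are printed, up to the start site: SSR3, SEC61G and SURF4 as genes called higher with DHT, and SEC62 as a gene that was not called. SSR3 is at chr3:156555118-156555367 (minus strand), SEC61G at chr7:54759212-54759461 (minus strand), SURF4 at chr9:133376061-133376310 (minus strand) and SEC62 at chr3:169966557-169966806 (plus strand). Each runs 5′ to 3′ on the strand of its gene, and capitals mark CCACG and the androgen receptor half-site AGAACA, or their reverse complements CGTGG and TGTTCT.
SSR3: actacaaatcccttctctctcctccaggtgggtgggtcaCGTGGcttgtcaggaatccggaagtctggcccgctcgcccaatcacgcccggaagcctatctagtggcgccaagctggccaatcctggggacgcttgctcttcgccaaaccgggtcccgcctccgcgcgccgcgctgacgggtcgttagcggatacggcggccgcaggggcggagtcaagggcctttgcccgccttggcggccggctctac
SEC61G: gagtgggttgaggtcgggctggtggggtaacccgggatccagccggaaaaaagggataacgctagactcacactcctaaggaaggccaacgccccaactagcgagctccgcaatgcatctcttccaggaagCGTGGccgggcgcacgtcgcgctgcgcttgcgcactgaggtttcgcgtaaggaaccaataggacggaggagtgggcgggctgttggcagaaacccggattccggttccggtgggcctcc
SURF4: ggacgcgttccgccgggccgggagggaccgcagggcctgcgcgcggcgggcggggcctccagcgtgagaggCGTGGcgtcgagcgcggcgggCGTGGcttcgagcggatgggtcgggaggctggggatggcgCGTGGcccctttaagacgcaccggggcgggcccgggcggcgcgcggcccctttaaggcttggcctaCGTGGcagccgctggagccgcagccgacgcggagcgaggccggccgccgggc
SEC62: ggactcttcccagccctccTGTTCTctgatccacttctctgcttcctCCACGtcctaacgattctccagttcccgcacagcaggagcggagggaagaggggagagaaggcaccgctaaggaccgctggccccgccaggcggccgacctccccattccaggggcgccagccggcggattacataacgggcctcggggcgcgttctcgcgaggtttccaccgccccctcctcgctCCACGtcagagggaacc

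In these windows CCACG occurred once in SSR3 and in SEC61G, at 4 places in SURF4 and at 2 in SEC62. Over the full 300-base windows, read on both strands, 34 of 37 members (91.9%) held CCACG, against 37.9% of all 27305 promoters and 49.95% of the 10584 promoters of tested genes. The longer GCCACGT, which contains CCACG, was present in 18 members (48.65%), against 3.30% of all promoters and 4.44% of those of tested genes. TGACGTG was present in 10 members (27.0%), against 2.00% and 2.504%. AGAACA was present in SEC62, SSR3 and TMED3 (8.11%, against 14.85% of all and 8.87% of tested genes), in SSR3 after the start site and so outside the stretch printed.

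None of the 37 windows held the full ER stress element (CCAAT, 9 bases, then CCACG, in 0.0806% of all promoters), the cAMP response element TGACGTCA (1.98%) or the full palindromic androgen response element. Median GC content was 65.7% in the members, 65.3% in promoters of tested genes and 58.3% in all promoters. These are matches of letters in a short window and not measured binding.

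The deposited unit, TPM, is scaled to transcript length, so levels can be compared between genes. Libraries held 14652 to 15360 genes at a TPM of at least 1, and mitochondrial genes took 14.7% to 22.3% of the total, the highest in DHT replicate 1. KLK3, which encodes prostate-specific antigen, ran from 20.4 to 845 TPM in the 14 libraries without DHT or with an antagonist and reached 4102 and 2422 TPM in DHT, which checks the labels. MKI67, a marker of dividing cells, ran from 0.83 to 11.7 TPM in the replicate 1 libraries and from 7.90 to 24.4 TPM in the replicate 2 libraries, with the highest value of each set in DHT. Among markers, 6 luminal prostate genes summed to 2309 to 6918 TPM, 2 basal genes to at most 0.16 TPM and 1 endothelial gene to at most 0.02 TPM, with no marker at 0 in every library. The 3 stromal genes summed to 11.4 to 32.6 TPM, nearly all from COL1A1, which was lowest with DHT (11.4 and 15.6 TPM), and the 2 immune genes summed to 0.93 to 12.1 TPM. The part of MKI67, COL1A1 and the mitochondrial share in the results was not tested. In bulk RNA, more RNA per cell and a larger share of expressing cells cannot be told apart.

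Libraries ENZ.DHT replicate 1 and APA.DHT replicate 1 stood apart, with 32 and 33 of the 40 members lower than in replicate 2, against 13 to 26 in the other 6 groups. In both, the difference between replicates tended to follow transcript length. Across 12177 genes with a known length, Spearman's rho between length and the log2 difference of replicate 1 from replicate 2 was -0.28 in ENZ.DHT and -0.31 in APA.DHT, and -0.06 to 0.04 in the other groups. Across the 40 members it was -0.31 and -0.37, against 0.21 to 0.40. Genes of a library share its depth and handling and are not independent, so these are descriptions. The median difference in the longest of 3 equal classes of genes by length was -0.34 and -0.40 on the log2 scale, and in the shortest class -0.02 and -0.03. Among the members, SEC24A (2700 bases) was at 7.13 and 12.6 in ENZ.DHT and 7.27 and 13.8 in APA.DHT (TPM). By this measure of length several members do not follow the order. SEC16A, the longest at 6551 bases, differed by only -0.11 and -0.13. TMED3 (2265 bases) differed by 0.25 and 0.28, and TMED7 (2245 bases) by -1.03 and -1.14. For SEC23A the median transcript of 575 bases is among the shortest of the members, and the differences were -0.87 and -1.09. That median counts every annotated protein-coding transcript alike, so it need not be the length of the RNA expressed. Counts that rest on these libraries are therefore given with and without them.

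**Figure D1:**
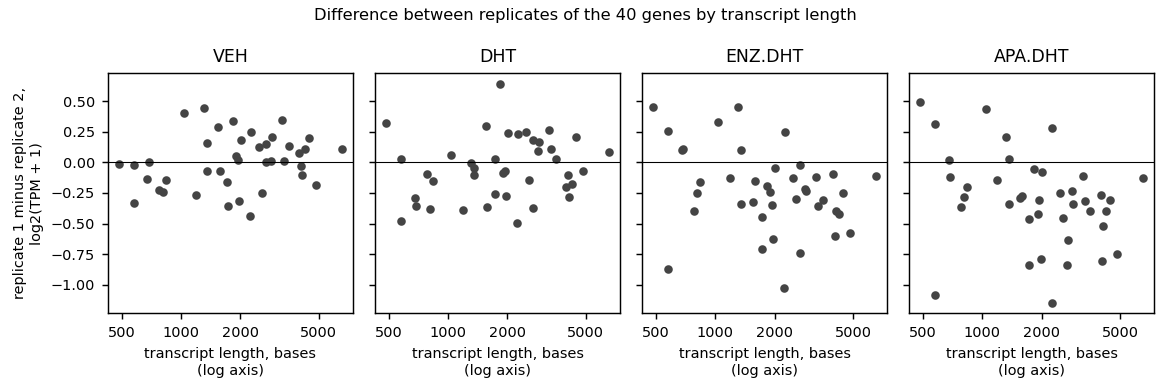
Log2 difference of replicate 1 from replicate 2 for each of the 40 transport genes (vertical axis) against the median length of its transcripts on a log axis (horizontal), for VEH, DHT, ENZ.DHT and APA.DHT. In ENZ.DHT and APA.DHT the longer transcripts tend to lie lower, with exceptions, at rho of -0.31 and -0.37, against 0.26 in VEH and 0.21 in DHT.

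The 40 genes together made up 0.425% to 0.662% of all TPM. Their levels spanned a wide range. The receptor genes TMED10 (225 to 493 TPM over the 16 libraries) and SSR4 (308 to 421 TPM) and the channel gene SEC61A1 (230 to 384 TPM) were among the most abundant, while KDELR3 (4.32 to 9.09 TPM), BET1, SEC24A, SEC24B and SEC24D stayed below 25 TPM in every library. The SEC24 paralogs, which bind cargo in the COPII coat, were unequal, with SEC24C holding 63.6% to 72.1% of their summed TPM.

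Summed over all 40 genes, the level was 4791 and 4717 TPM in VEH against 6459 and 6502 TPM in DHT, so that both DHT libraries were higher. The other 6 groups ranged from 4154 to 4948 TPM. The mean was 4754 ± 52.1 TPM in VEH and 6480 ± 30.3 TPM in DHT (SD, n = 2, as below). With an antagonist the mean TPM was 4694 ± 71.8 in BIC.DHT, 4371 ± 307 in ENZ.DHT and 4454 ± 407 in APA.DHT. All 6 role groups had higher summed levels in DHT than in VEH: 1237 against 810 TPM for the translocon, 1077 against 779 TPM for its associated complex and the SRP receptor, and 833 against 710 TPM for COPII. For COPI the means were 1533 and 1163 TPM, for cargo receptors 1703 and 1213 TPM and for SNAREs 96.9 and 78.8 TPM.

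**Figure D2:**
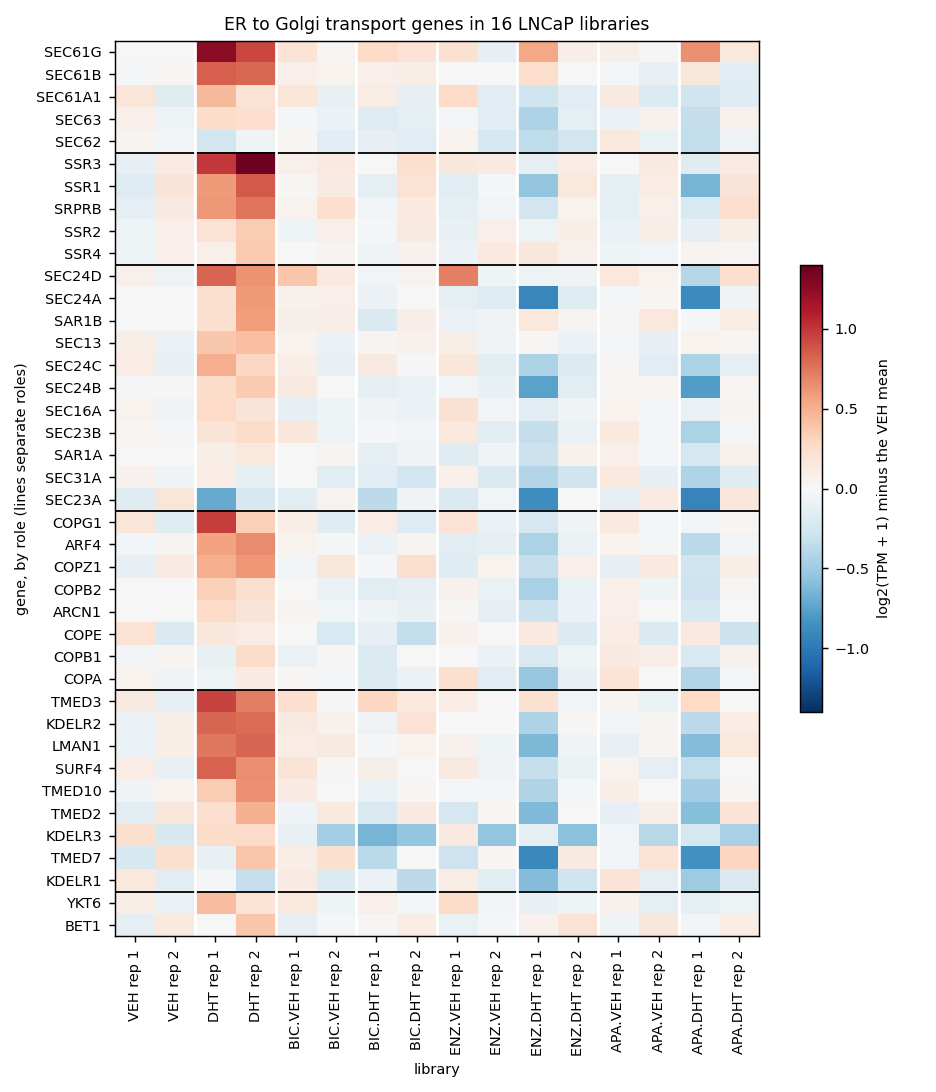
Log2(TPM + 1) of each of the 40 transport genes (rows, by role) in each of the 16 libraries (columns), as the difference from that gene's mean over the VEH libraries (colour scale, log2 units). Most rows are red in both DHT columns, and most rows are blue in ENZ.DHT replicate 1 and APA.DHT replicate 1.

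With DHT, 9 of the 40 genes rose against VEH and none fell (limma on log2(TPM + 1), Benjamini-Hochberg adjusted p below 0.05 over 16636 genes). Of all genes tested, 3.63% were called higher and 6.64% lower. The replicate numbers paired the libraries, and with replicate number as a block 18 members were called higher and 0 lower, against 10.6% higher and 16.8% lower among all genes. At an unadjusted p below 0.05 there were 17 members without and 24 with the block. The share of all genes below that p is not given here, so how far these counts stand out cannot be read. The log2 fold change (log2FC) was positive in 36 of 40 members, with a median of 0.32, where the median of all tested genes was -0.10. Under a median-ratio scaling the median of all genes moved to 0.01, that of the members to 0.45 and the number of members called to 20. Over all genes the 604 calls higher and 1105 lower became 1046 and 861.

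Both DHT libraries were above both VEH libraries for 31 members (20.0% of all genes), and above all 14 other libraries for 26 members (10.5% of all genes). The 9 genes whose DHT and VEH libraries overlapped or lay the other way were SEC62, SEC23A, SEC31A, COPA, COPB1, COPE, KDELR1, TMED7 and BET1. Within a replicate number, DHT was above VEH in both numbers for 33 members and below in both for 3 (29.2% and 48.1% of all genes). The count of 9 was 5 without VEH replicate 1, 3 without VEH replicate 2, 2 without DHT replicate 1 and 6 without DHT replicate 2. SEC61B and SSR3 were called under each of these. Shares of all genes called in these fits are not given here. Without ENZ.DHT replicate 1 and APA.DHT replicate 1, which changes only the shared estimate of the spread, 13 members rose (5.18% of all genes).

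**Figure D3:**
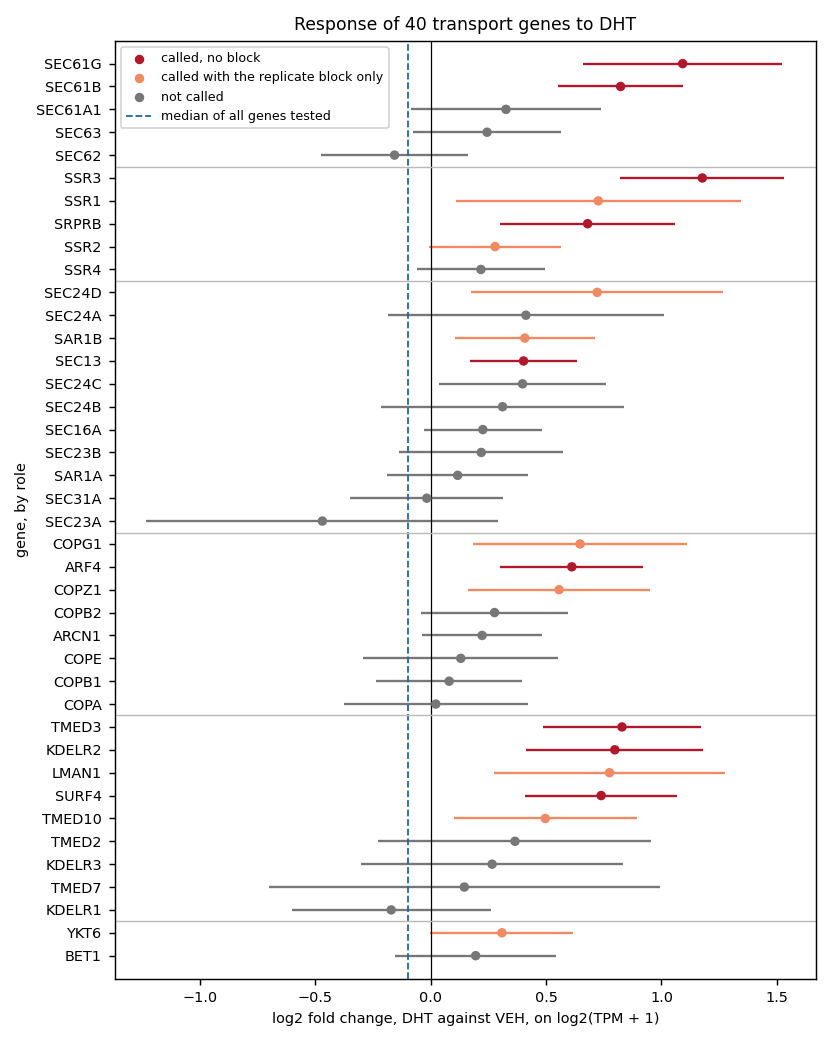
Log2FC of DHT against VEH for each of the 40 genes (points, with 95% confidence intervals from the fit without block), grouped by role. Dark red marks the 9 genes called without the block, orange the 9 called only with the replicate block, and the dashed line the median of all genes at -0.10.

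Among the channel genes, the small subunits rose. Values are given for replicate 1 and then replicate 2. SEC61G, the gamma subunit (chromosome 7, 54752253 to 54759211 in GRCh38.p14), stood at 158 and 159 TPM in VEH against 378 and 303 TPM in DHT. The groups did not overlap, and its log2FC was 1.09 (SE 0.20, limma adjusted p 0.0053). The call was lost without DHT replicate 1. SEC61B, the beta subunit (chromosome 9, 99222282 to 99230615), was at 212 and 216 TPM in VEH against 384 and 376 TPM in DHT, a log2FC of 0.82 (SE 0.12, limma adjusted p 0.0019).

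SEC61A1, which forms the pore itself, was at 315 and 248 TPM in VEH against 384 and 320 TPM in DHT. The DHT libraries were higher, but by little more than the gap between replicates, and the log2FC of 0.33 (SE 0.19) did not pass (limma adjusted p 0.31). SEC62 and SEC63 assist the import of finished chains. SEC62, with libraries at 71.5 and 67.8 TPM in VEH against 58.2 and 66.9 TPM in DHT, was 1 of the 4 members with a negative fold change (-0.16, SE 0.15, limma adjusted p 0.55). SEC63 had 90.6 and 82.5 TPM in VEH against 104 and 102 TPM in DHT, and was not called.

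The translocon-associated protein (TRAP) complex, encoded by SSR1 to SSR4, sits beside the channel. SSR3, its gamma subunit (chromosome 3, 156539553 to 156555117), had the highest fold change of the 40 genes. It was at 74.9 and 88.6 TPM in VEH against 162 and 212 TPM in DHT, clear of each other, a log2FC of 1.18 (SE 0.16, limma adjusted p 0.0012). SSR1, the alpha subunit, was at 71.8 and 92.4 TPM in VEH against 124 and 148 TPM in DHT. Its log2FC of 0.73 (SE 0.28) did not pass without the block (limma adjusted p 0.13) but did with it (adjusted p 0.0087).

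SSR2 likewise was called only with the block, with 222 and 246 TPM in VEH against 270 and 299 TPM in DHT. SSR4 was not called in either fit, with 312 and 342 TPM in VEH against 343 and 421 TPM in DHT. The 4 subunits of 1 complex thus had fold changes from 0.22 to 1.18 on the log2 scale. SRPRB, which encodes the membrane anchor of the SRP receptor (chromosome 3, 133784023 to 133828574), was at 49.3 and 58.95 TPM in VEH against 82.7 and 91.6 TPM in DHT, a log2FC of 0.68 (SE 0.17, limma adjusted p 0.029). Its call was lost when any 1 of these libraries was left out.

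Of the 11 COPII genes, 1 was called. SEC13, which builds the outer coat (chromosome 3, 10300931 to 10321112), was at 99.7 and 89.4 TPM in VEH against 123 and 127 TPM in DHT. It rose by 0.40 on the log2 scale (SE 0.11, limma adjusted p 0.034), a call lost when any 1 of these libraries was left out. SEC31A, its partner in the outer coat, was at 120 and 110 TPM in VEH against 124 and 104 TPM in DHT, and the groups overlapped. SEC24D was at 13.8 and 12.4 TPM in VEH against 23.7 and 20.8 TPM in DHT, and SAR1B, which encodes a GTPase that starts the coat, at 82.8 and 82.8 TPM in VEH against 97.2 and 125 TPM in DHT. Both were called only with the replicate block, at adjusted p of 0.045 and 0.021 (limma).

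SEC23A, the inner coat partner of SEC24, had the lowest fold change of the 40 genes. It was at 49.1 and 62.1 TPM in VEH against 33.4 and 47.0 TPM in DHT, so that both DHT libraries were lower, at -0.47 on the log2 scale (SE 0.35, limma adjusted p 0.44). Its paralog SEC23B was at 110 and 106 TPM in VEH against 123 and 130 TPM in DHT, with a log2FC of 0.22 (SE 0.16, limma adjusted p 0.43). SEC23A held 33.8% ± 4.27 of the summed TPM of the pair in VEH and 23.98% ± 3.65 in DHT, and 25.9% to 36.9% in the 14 libraries other than DHT, so that DHT replicate 2 (26.6%) lay within that range.

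Of the 8 COPI genes, ARF4 was called. ARF4 encodes a small GTPase that helps recruit the coat to Golgi membranes (chromosome 3, 57571363 to 57597344). It was at 227 and 239 TPM in VEH against 344 and 370 TPM in DHT, a log2FC of 0.61 (SE 0.14, limma adjusted p 0.019), lost when any 1 of these libraries was left out. The coat subunits COPG1 and COPZ1 were called only with the block. COPG1 was at 193 and 153 TPM in VEH against 337 and 216 TPM in DHT (log2FC 0.65, SE 0.21, limma adjusted p 0.077, with the block 0.012), and COPZ1 at 168 and 197 TPM in VEH against 260 and 277 TPM in DHT.

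Other subunits of the coat were not called, and differences between subunits were not tested. COPA, the alpha subunit, was at 104 and 96.3 TPM in VEH against 95.4 and 108 TPM in DHT, and its 95% interval ran from -0.38 to 0.42 on the log2 scale. COPB1 and COPE also had overlapping groups, with log2FC values of 0.08 and 0.13.

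Cargo receptors held 3 of the 9 calls. TMED3, a p24 family member (chromosome 15, 79311112 to 79413886), was at 165 and 138 TPM in VEH against 291 and 248 TPM in DHT, and rose by 0.83 (SE 0.16, limma adjusted p 0.0067). SURF4, a receptor that exports soluble cargo from the ER (chromosome 9, 133361464 to 133377949), was at 138 and 119 TPM in VEH against 227 and 202 TPM in DHT, and rose by 0.74 (SE 0.15, limma adjusted p 0.010). Both calls were lost without VEH replicate 2 and without DHT replicate 1. LMAN1, a lectin that carries glycoproteins (chromosome 18, 59327823 to 59359265), was at 46.8 and 53.5 TPM in VEH against 84.1 and 88.7 TPM in DHT. Its log2FC of 0.77 (SE 0.23, limma adjusted p 0.054) passed only with the replicate block (adjusted p 0.010), and so did TMED10 (0.50, SE 0.18), at 306 and 328 TPM in VEH against 406 and 493 TPM in DHT.

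Of the 3 KDEL receptors, which return escaped ER residents, 1 was called. KDELR2 (chromosome 7, 6461089 to 6484152) was at 95.0 and 106 TPM in VEH against 177 and 174 TPM in DHT, and rose by 0.80 (SE 0.17, limma adjusted p 0.015), a call lost when any 1 of these libraries was left out. KDELR1 was at 228 and 186 TPM in VEH against 203 and 165 TPM in DHT, overlapping, with a log2FC of -0.17 (SE 0.20, limma adjusted p 0.64). KDELR2 held 32.1% ± 4.94 of the summed TPM of the 3 receptors in VEH and 47.8% ± 3.10 in DHT. In the 14 libraries other than DHT its share ran from 28.6% to 41.2%, below both DHT libraries (45.6% and 49.9%). KDELR3 had 8.74 and 6.18 TPM in VEH against 9.03 and 9.09 TPM in DHT. These shares were described and not tested.

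The SNARE genes YKT6 and BET1, whose proteins take part in vesicle fusion, had log2FC values of 0.31 and 0.20. YKT6 was at 68.2 and 60.1 TPM in VEH against 86.5 and 73.3 TPM in DHT and was called only with the replicate block (limma adjusted p 0.046). BET1 was at 13.2 and 16.1 TPM in VEH against 14.6 and 19.4 TPM in DHT, and the groups overlapped.

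The 14 libraries that had no DHT or had an antagonist give the other levels of these genes. SSR3 ran from 72.4 to 95.0 TPM (median 88.2), SEC61G from 146 to 248 TPM (median 172) and SEC61B from 192 to 253 TPM (median 216). TMED3 ran from 138 to 185 TPM (median 159), SURF4 from 101 to 145 TPM (median 128) and KDELR2 from 74.5 to 115 TPM (median 101). SRPRB ran from 45.1 to 63.7 TPM (median 54.2), ARF4 from 172 to 242 TPM (median 227) and SEC13 from 87.3 to 100.04 TPM (median 95.8). For each of these 9 genes the higher end lay below both DHT libraries. The 9 were picked as called higher in those same DHT libraries, so this adds no support. Of all 40 members 26 had both DHT libraries above the 14 others, against 10.5% of all genes. SEC61G and SEC61B had their highest of the 14 values in a replicate 1 library with DHT and apalutamide or enzalutamide, the libraries that stood apart.

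**Figure D4:**
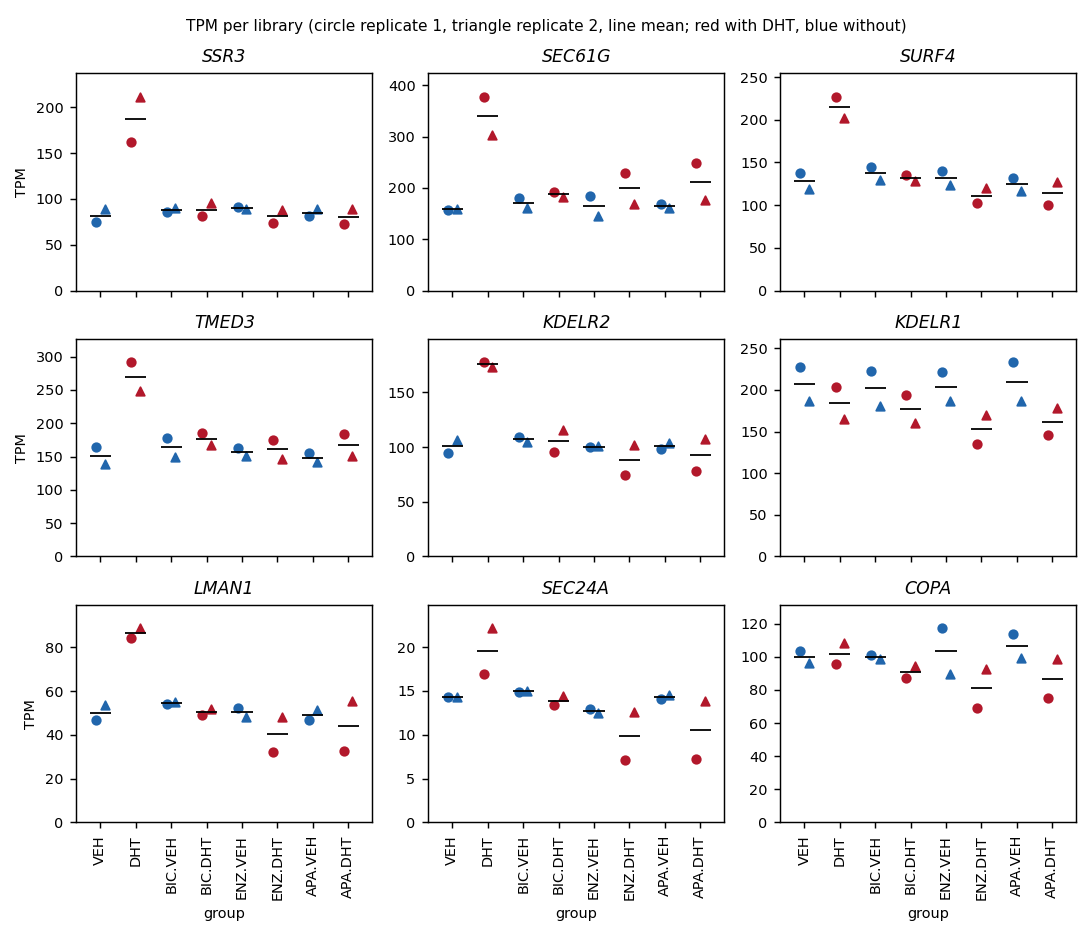
TPM of 9 transport genes in every library (circles replicate 1, triangles replicate 2, lines group means, red with DHT and blue without), on linear axes that start at 0. For SSR3, SEC61G, SURF4, TMED3, KDELR2 and LMAN1 both DHT points lie above all 14 others, for KDELR1 and COPA they do not.

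Each antagonist given with DHT was compared with DHT alone. These 3 comparisons share the 2 DHT libraries with each other and with the comparison above, so their values are set side by side and not counted as separate evidence. With bicalutamide 6 of 40 genes fell (1.68% of all genes were called lower), with enzalutamide 17 (4.91%) and with apalutamide 11 (4.11%), by limma with Benjamini-Hochberg adjustment, and no member rose. The replicate block gave counts of 18 (6.82%), 27 (15.9%) and 27 (14.1%). The median log2FC of the 40 genes was -0.41, -0.55 and -0.50, against 0.00, -0.01 and 0.00 for all genes. Both antagonist libraries lay below both DHT libraries for 34 members with bicalutamide (21.9% of all genes), 33 with enzalutamide (25.0%) and 32 with apalutamide (22.2%).

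The libraries that stood apart moved these counts. Without ENZ.DHT replicate 1 and APA.DHT replicate 1, 14 members were called lower with bicalutamide (2.78% of all genes), 9 with enzalutamide (2.80%) and 8 with apalutamide (2.77%), and the medians were -0.41, -0.42 and -0.38. Within replicate 2 alone, which holds neither of these libraries, the medians over the 40 genes were -0.38, -0.43 and -0.35, and within replicate 1 they were -0.38, -0.70 and -0.63. No share of all genes is given for the fits that follow. The counts also rested on the DHT libraries. They were 1, 5 and 4 without DHT replicate 1 and 0, 7 and 4 without DHT replicate 2. For bicalutamide the count was 0 without BIC.DHT replicate 1 and 1 without BIC.DHT replicate 2.

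SSR3 showed the widest gap in all 3 comparisons, at 81.6 and 95.0 in BIC.DHT, 73.9 and 87.9 in ENZ.DHT and 72.4 and 88.5 in APA.DHT (TPM). All 6 of these libraries were below the 162 and 212 TPM of DHT and around the VEH range of 74.9 to 88.6 TPM. Its log2FC values against DHT were -1.07, -1.19 and -1.20 (SE 0.16 each, limma adjusted p 0.0053, 0.0013 and 0.0013). SURF4 was at 135 and 129 in BIC.DHT, 102 and 120 in ENZ.DHT and 101 and 127 in APA.DHT (TPM), and fell by 0.69, 0.95 and 0.91 (SE 0.15 each, limma adjusted p 0.032, 0.0031 and 0.0041). In ENZ.DHT and APA.DHT the lower value of SURF4 was in replicate 1.

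KDELR2 was at 95.9 and 115 in BIC.DHT, 74.5 and 102 in ENZ.DHT and 78.0 and 108 in APA.DHT (TPM), and fell by 0.73, 1.00 and 0.93 (SE 0.17, limma adjusted p 0.048, 0.0054 and 0.0084). ARF4 fell by 0.63, 0.88 and 0.82 (SE 0.14, limma adjusted p 0.038, 0.0034 and 0.0051). Of the channel genes, SEC61B fell by 0.74, 0.71 and 0.82 (SE 0.12, limma adjusted p 0.0098, 0.0055 and 0.0025). SEC61G was at 193 and 183 in BIC.DHT, 230 and 168 in ENZ.DHT and 248 and 176 in APA.DHT (TPM), all below DHT. Its changes of -0.85, -0.78 and -0.69 (SE 0.20) were called with bicalutamide and enzalutamide (limma adjusted p 0.044 and 0.031) but not with apalutamide (0.053, with the block 0.0025). With bicalutamide, the calls of KDELR2, ARF4, SEC61B, SEC61G and SURF4 were lost when any 1 of the 4 libraries compared was left out, and that of SSR3 without DHT replicate 2 and without BIC.DHT replicate 1. With enzalutamide and apalutamide, the calls of SSR3, SURF4 and SEC61B held without each of those libraries.

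LMAN1 was at 49.1 and 51.9 in BIC.DHT, 32.1 and 48.3 in ENZ.DHT and 32.5 and 55.4 in APA.DHT (TPM). Its log2 changes were -0.76, -1.11 and -1.01 (SE 0.23, limma adjusted p 0.11, 0.012 and 0.021), and the first passed with the block (adjusted p 0.021). The calls for LMAN1 with enzalutamide and apalutamide were lost without either DHT library and without the replicate 1 library of that group. SEC24A, with the values given above for those groups, was called with enzalutamide at a limma adjusted p of 0.04996 (log2FC -0.95, SE 0.27), a call lost without either DHT library and without ENZ.DHT replicate 1.

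The members with the lowest DHT values were also compared with each antagonist. SEC23A had log2FC values of 0.26, 0.04 and 0.08 (SE 0.35), and SEC62 of 0.02, -0.15 and -0.05 (SE 0.15). None was called (limma adjusted p 0.53 to 0.97). For KDELR1 they were -0.06, -0.27 and -0.18 (SE 0.20).

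Without DHT, no member was called with any antagonist against VEH. Of all genes 0% were called with bicalutamide (0.0180% with the replicate block), 0% with enzalutamide in either fit and 0.00601% with apalutamide (0.0120% with the block). No member reached an unadjusted p below 0.05 in limma, with or without the block. How many of all genes did is not given here. The log2FC values of the 40 genes ran from -0.29 to 0.26 with bicalutamide, from -0.21 to 0.32 with enzalutamide and from -0.21 to 0.11 with apalutamide. The lowest was KDELR3, a gene of low level, with each drug. SSR3 was at 85.4 and 89.98 TPM in BIC.VEH, 91.3 and 88.7 TPM in ENZ.VEH and 81.0 and 89.0 TPM in APA.VEH, beside 74.9 and 88.6 TPM in VEH. SURF4 was at 145 and 130 TPM, 140 and 124 TPM and 132 and 117 TPM in the same order, beside 138 and 119 TPM in VEH. Each group overlapped VEH for both genes, except that both ENZ.VEH libraries were above VEH for SSR3, by as little as 88.67 against 88.6 TPM. The 95% interval lay within ±1 on the log2 scale for 39, 40 and 40 members.

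With an antagonist present, DHT was compared with the antagonist alone. No member was called in any arm, with 0% of all genes called within bicalutamide in either fit, 0.00601% within enzalutamide in either fit and 0.00601% within apalutamide (0.0240% with the block). At an unadjusted p below 0.05 in limma there were 0 members in each arm, and 0, 1 and 3 with the block. How many of all genes fell below that p is not given here, so these counts cannot be set against it. The median log2FC was -0.08, -0.19 and -0.14, where all genes had -0.06, -0.13 and -0.07. Within replicate 2 alone the medians were -0.01, 0.01 and 0.02, and within replicate 1 they were -0.12, -0.39 and -0.34. SSR3 had 0.01 within bicalutamide (95% interval -0.35 to 0.36), -0.16 within enzalutamide (-0.51 to 0.20) and -0.08 within apalutamide (-0.44 to 0.27). SEC61G had the highest value within enzalutamide and within apalutamide, at 0.26 (-0.17 to 0.69) and 0.35 (-0.08 to 0.78).

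**Figure D5:**
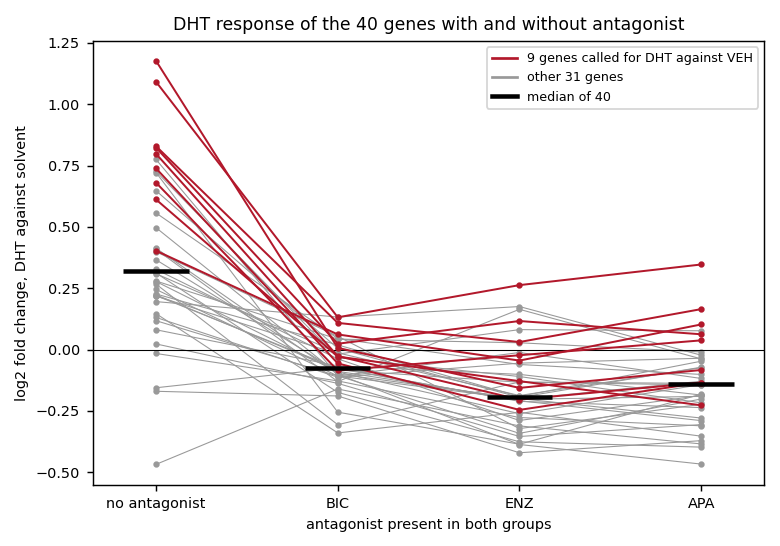
Log2FC of DHT against its control without DHT for each of the 40 genes (points, joined by a line per gene), with no antagonist and within each antagonist arm. Red marks the 9 genes called for DHT against VEH and black bars the median of the 40. With no antagonist the values run from -0.47 to 1.18, and within the arms from -0.47 to 0.35.

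The difference between the DHT effect with and without an antagonist was tested as an interaction. It was called, on the lower side, for SSR3 with bicalutamide, for SSR3 and SURF4 with enzalutamide and for SSR3 with apalutamide, that is for 1, 2 and 1 of the 40 genes, against 0.667%, 1.05% and 0.805% of all genes (limma, Benjamini-Hochberg adjusted). The replicate block gave counts of 9 (3.15% of all genes), 13 (5.72%) and 12 (4.91%), all lower. The medians over the 40 genes were -0.41, -0.52 and -0.50 on the log2 scale, against 0.03, -0.02 and 0.02 for all genes. Shares of all genes are not given for the following fits without some libraries, so how far their counts stand out cannot be read. For bicalutamide the count was 0 when VEH replicate 1 or 2, DHT replicate 2 or any of its own 4 libraries was left out, and for enzalutamide and apalutamide it ranged from 0 to 3 over such fits. Without ENZ.DHT replicate 1 and APA.DHT replicate 1 the counts were 6, 3 and 1.

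The antagonists were also compared with each other at 10 µM with DHT. Enzalutamide and apalutamide share a thiohydantoin core, and apalutamide carries a spiro-cyclobutyl group and a pyridine ring where enzalutamide carries a gem-dimethyl group and a benzene ring. Bicalutamide is an anilide without that core. Over these 3 pairs and 40 genes, no member was called (limma, adjusted over all genes within each pair), with 0.00601% of all genes called for enzalutamide against bicalutamide (0.0120% with the block), 0% for apalutamide against bicalutamide (0.0541% with the block) and 0.00601% for apalutamide against enzalutamide in either fit. At an unadjusted p below 0.05 there were 1, 0 and 0 members, and 3, 2 and 0 with the block. How many of all genes fell below that p is not given here, so these counts cannot be set against it. The log2 differences of the 40 genes ran from -0.50 (SEC24A) to 0.25 (KDELR3) for enzalutamide against bicalutamide and from -0.43 to 0.25 for apalutamide against bicalutamide, for the same genes at both ends. The SEC24A values rest on replicate 1 of ENZ.DHT and of APA.DHT, since replicate 2 stood at 12.6 and 13.8 TPM beside 13.4 and 14.4 TPM in BIC.DHT. The median difference of the 40 genes was -0.14 and -0.08, and -0.01 and 0.04 without those 2 libraries. For apalutamide against enzalutamide they ran from -0.11 (SEC61B) to 0.15 (SEC63). The 95% intervals lay within ±1 for 38, 39 and 40 of the 40 genes, which leaves smaller differences unsettled.

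Of 78 further genes of the same route, 74 passed the filter (SEC16B, COPZ2, TMED6 and CREB3L1 did not). With DHT, 5 of them rose and 3 fell against VEH, and with the replicate block 16 were higher and 6 lower, a median of 0.15 on the log2 scale. Of all genes 3.63% were called higher and 6.64% lower (10.6% and 16.8% with the block), at a median of -0.10. SEC11C, a catalytic subunit of the signal peptidase that trims chains in the channel, was at 164 and 140 TPM in VEH against 555 and 451 TPM in DHT, a log2FC of 1.72 (SE 0.34, limma adjusted p 0.0091). In ENZ.DHT and APA.DHT SEC11C was at 334 and 160 TPM and at 309 and 171 TPM, higher in replicate 1. TMED9, a p24 family member, was at 124 and 101 TPM in VEH against 205 and 171 TPM in DHT, with a log2FC of 0.74 (SE 0.19, limma adjusted p 0.028). ERGIC2, YIF1B and CREB3L4 rose by 0.66, 0.45 and 0.50 (limma adjusted p 0.011, 0.037 and 0.038).

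The genes that fell with DHT were SRP14, a subunit of SRP, from 699 and 696 TPM to 479 and 467 TPM, ARF5, a GTPase related to ARF4, from 306 and 264 TPM to 199 and 200 TPM, and SEC31B, the paralog of SEC31A, from 9.63 and 7.79 TPM to 4.24 and 4.19 TPM. In limma their log2FC values were -0.56, -0.51 and -0.89 (adjusted p 0.039, 0.020 and 0.047). By group, 3 of 14 further p24 and lectin receptor genes rose, where 3.63% of all genes were called higher. None of 15 further SNARE and tether genes was called (1 at an unadjusted p below 0.05, limma), where 10.3% of all genes were called in either direction. How many of all genes fell below that unadjusted p is not given here.

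Against DHT alone, the further genes called lower and higher numbered 2 and 0 with bicalutamide, 12 and 2 with enzalutamide and 9 and 2 with apalutamide. The shares of all genes called lower were 1.68%, 4.91% and 4.11%, and 242, 788 and 707 of the 16636 genes were called higher. SRP14 and SEC31B were the 2 that were higher with enzalutamide and with apalutamide. SRP14 stood at 888 and 674 in ENZ.DHT and 872 and 691 in APA.DHT (TPM), higher in replicate 1.

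Among 5 transcription factors known to drive secretory genes, CREB3L4, a CREB3 relative, was called higher with DHT, at 90.2 and 92.9 TPM in VEH against 118 and 143 TPM in DHT. XBP1 was at 94.5 and 105 TPM in VEH against 100.4 and 130 TPM in DHT (log2FC 0.19, SE 0.18, limma adjusted p 0.54). ATF6 (-0.10, SE 0.17), CREB3 (0.29, SE 0.21) and CREB3L2 (0.54, SE 0.35) were not called, and CREB3 was called with the replicate block (limma adjusted p 0.023). These are transcript levels, which do not measure splicing of XBP1 or cleavage of ATF6 and the CREB3 proteins.

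Set beside the promoters shown above, 5 of the 18 members with GCCACGT and 2 of the 19 without it were called higher with DHT. With the replicate block 7 and 8 were. Of all genes, 3.63% were called higher without the block and 10.6% with it. KDELR2 and ARF4, called without the block, and SEC24D, called with it, had no promoter to read and are left out. Whether the motif goes with the response was not tested. The median log2FC was 0.38 in the 18 members with GCCACGT and 0.28 in the 19 without it. Both sets ran from a negative value (SEC23A at -0.47, KDELR1 at -0.17) to above 1 (SSR3 at 1.18, SEC61G at 1.09). SEC61B, which rose, held no CCACG, and SEC62, which did not, held 2.

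Position limits some of these values. In RefSeq, 13 members overlap another gene that reached a TPM of 1, among them SRPRB (with RAB6B), ARF4 (with PDE12), SURF4 (with STKLD1), SEC61A1 (with RUVBL1), SSR4 (with IDH3G) and SEC23A (with its antisense gene SEC23A-AS1). The libraries were strand-specific, but whether strand was used in the counting was not given in the sources used here. Named pseudogene copies of 9 members were in the table, at no more than 7.39 TPM (a copy of SSR4).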

How the data were processed

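Strand-specific libraries of polyadenylated RNA from 16 LNCaP cultures were sequenced as 125 bp pairs, about 40 M pairs each per the labels. Per the submitters' processing notes, the tools were FastQC 0.11.9, Trim Galore 0.6.5, STAR 2.7.2b and RSEM 1.3.3, with GRCh38. The authors deposited RSEM TPM values per gene symbol, 1 column per library, not pooled. TPM keeps no read depth, so no counting interval is given and precision rests on the 2 replicates of a group. TPM is relative, so a rise of abundant transcripts lowers all others.

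Groups and replicate numbers came from the sample labels. Genes were kept where 2 or more libraries reached a TPM of 1. Values were transformed as log2(TPM + 1), which understates changes of low genes. A model of 8 group means over all 16 libraries was fitted with limma 3.58.1 (trend option, R 4.3.3), tested on simulated data, with Benjamini-Hochberg adjustment within each contrast and a threshold of 0.05. Deviations of same-numbered libraries correlated in all 28 pairs of groups (r from 0.20 to 0.64, median 0.43, each above the 0.1 required), so the numbers were taken to pair the libraries, and a fit with replicate number as a block is given where it changes a result. No 2 libraries were identical (0 pairs), and replicates correlated at r of 0.964 to 0.982.

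Members described singly are those called for DHT against VEH without the block, up to 3 further ones called with an antagonist, the most abundant of each role and the 3 with the lowest DHT response. The other members are named for contrast within a complex, after their values were seen. The members and all gene lists were chosen with earlier results of these data known. Transcript lengths were medians over GENCODE v44 protein-coding transcripts, not weighted by their expression. Promoters and positions came from RefSeq, GRCh38.p14. Alternatives covered the pseudocount (0.1), the filter (none, or a TPM of 5), median-ratio scaling, leaving out mitochondrial genes, the block, limma without trend, fitting only the groups compared and leaving out each library. Leaving out ENZ.DHT replicate 1 and APA.DHT replicate 1 together was chosen after seeing the data.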

Additional observations from a re-analysis of the deposited data

Results flagged for a closer look

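The effect of DHT was called different between cells with and without an antagonist for 2 transport genes, by the interaction term of the limma fit. For SSR3 the difference was -1.17 with bicalutamide (SE 0.23, adjusted p 0.038), -1.33 with enzalutamide (SE 0.23, adjusted p 0.014) and -1.26 with apalutamide (SE 0.23, adjusted p 0.022) on the log2 scale. For SURF4 it was -0.98 with enzalutamide (SE 0.21, adjusted p 0.044). The corresponding values for SURF4 with bicalutamide and apalutamide, -0.80 and -0.87 (SE 0.21), had adjusted p of 0.13 and 0.080 without and 0.037 and 0.019 with the replicate block. The 3 interactions share the VEH and DHT libraries. With no filter, 0, 1 and 1 members were called with bicalutamide, enzalutamide and apalutamide (0.573%, 0.927% and 0.743% of all genes). In limma without trend the counts were the same (0.95%, 1.54% and 1.45%). The calls also depended on single libraries, as given above.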

How the results depend on the processing

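With 2 libraries a group, the calls depended on the estimate of the spread, and no called direction reversed under the alternatives run. Counts of members called are given in the order DHT against VEH, then bicalutamide, enzalutamide and apalutamide with DHT against DHT, then the interactions in the same order of drugs. As reported they were 9, 6, 17 and 11, and 1, 2 and 1 (of all genes 10.3%, 3.13%, 9.65% and 8.36%, and 0.986%, 1.63% and 1.42%). With the replicate block they were 18, 18, 27 and 27, and 9, 13 and 12, and with the block and without ENZ.DHT replicate 1 and APA.DHT replicate 1 they were 30, 33, 26 and 22, and 26, 21 and 15. Of those 30, 28 were higher and 2 lower, and 1 was higher in each of the other comparisons except the interaction with bicalutamide, where none was. Without these 2 libraries and with no block they were 13, 14, 9 and 8, and 6, 3 and 1. Under median-ratio scaling they were 20, 7, 21 and 18, and 2, 4 and 4 (shares 11.5%, 3.95%, 11.6% and 10.4%, and 1.36%, 1.97% and 1.77%). With no filter they were 8, 3, 10 and 9, and 0, 1 and 1 (shares 4.72%, 1.64%, 4.1% and 3.67%, and 0.573%, 0.927% and 0.743%). In limma without trend they were 8, 3, 15 and 10, and 0, 1 and 1 (shares 10.3%, 2.98%, 9.34% and 8.36%, and 0.95%, 1.54% and 1.45%). Fits limited to the libraries of the groups compared gave 0, 0, 0 and 0, and 1, 0 and 0. Of all genes they called 1.04%, 0%, 0.0421% and 0% in the first 4 comparisons, and the interaction shares are not given here. Fewer libraries estimate the spread in these fits, and the part of that in the lost calls was not tested. Without mitochondrial genes the apalutamide interaction count was 2 (1.35% of all genes). Leaving out 1 library at a time gave 2 to 6, 0 to 1, 5 to 16 and 4 to 16, and 0 to 1, 0 to 3 and 0 to 3. The other 9 comparisons had 0 members called in each alternative. Where no share of all genes is given for a fit that left out libraries, how far its count stands out cannot be read. Shares of all genes called in either direction moved as well. With the block they were 13.3%, 29.2% and 27.3% for bicalutamide, enzalutamide and apalutamide with DHT against DHT. For the interactions they were 6.39%, 9.91% and 10.1%. For DHT against VEH they were 10.3% as reported, 27.4% with the block and 11.5% under median-ratio scaling. With the block and without ENZ.DHT replicate 1 and APA.DHT replicate 1 the share was 41.2%. In that fit it was 25.6% for bicalutamide with DHT against DHT and 16.1% for the bicalutamide interaction. Its enzalutamide and apalutamide counts rest on 1 library each with drug and DHT. Depth is unknown from TPM.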
